A study of Mus musculus with 5 samples.

Results

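Transcripts of keratinocyte genes were measured in libraries of purified mouse Langerhans cells. Keratinocytes are the epithelial cells in which Langerhans cells are embedded. The gene set held 32 mouse genes, chosen by symbol, and all 32 were found among the 27179 gene identifiers of the count table. They were split by place and role into 8 basal, 7 suprabasal, 4 cornified envelope and 5 desmosome genes, 3 keratins of appendages and wounded skin, and 4 epithelial genes that belong to no one layer. The remaining gene, Fabp4, encodes a fatty acid binding protein of adipocytes and some endothelium that is not restricted to these cells. It was kept out of every layer sum, which left 31 keratinocyte genes.

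Each library was made by SMART-Seq from 5000 purified cells of mouse skin, at an age of 1 week and on the C57BL/6 background. The donors were Suz12 cKO, a conditional knockout of a core subunit of Polycomb repressive complex 2 (3 libraries), or wild type, written WT (2 libraries). The labels name no Cre driver for the knockout, and whether animals were pooled is not given in the sources used here. The labels and design text call the libraries biological replicates, but do not say how many animals each came from, so the p-values cover library-to-library spread, which may in part be technical.

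Gene counts came to 17384033, 25725900 and 12090062 in cKO replicates 1 to 3 and to 18656968 and 17041996 in WT replicates 1 and 2. Suz12 had 0, 0 and 7 counts in the cKO libraries and 88 and 39 counts in the WT libraries, the direction of the genotype labels (log2 fold change -4.11, standard error 2.91, edgeR adjusted p = 0.999). A source label names alveolar macrophages, while titles, tissue and protocol name Langerhans cells. The 8 genes listed as Langerhans cell markers, among them Cd207 for langerin and the MHC class II genes, all had counts and summed to between 99950 and 121900 CPM. The highest of them in every library were Cd74, H2-Aa and H2-Ab1, which are not restricted to Langerhans cells. Cd207 itself lay at 14600, 6639 and 8393 CPM in cKO replicates 1 to 3 and at 7584 and 7417 CPM in WT replicates 1 and 2. CPM are counts scaled to an effective library of 1e+06 counts. A library without a count of a gene could hold it at up to 0.106 to 0.258 CPM, the value of 3 counts. These floors, and the intervals given for shares, account for counting error alone, since PCR copies were not collapsed by a molecular identifier.

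The epidermis renews itself from a basal layer, which is anchored to the basement membrane by hemidesmosomes and makes the keratin pair Krt5 and Krt14. Cells that leave it switch to Krt1 and Krt10 in the suprabasal layers, are joined to one another by desmosomes, and end as cornified cells under an envelope built from loricrin, involucrin and late envelope proteins. Langerhans cells sit among the basal and suprabasal cells, so a sorted fraction can hold RNA of keratinocytes that were carried over. In bulk libraries, fewer keratinocytes and less keratinocyte RNA per cell cannot be told apart. The cell in which a transcript was made, keratinocyte or Langerhans cell, is not known from them either.

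Transcripts of the keratinocyte genes were present at a low level in every library, and their sum was lowest in WT replicate 1. The 31 genes together took 0.134%, 0.174% and 0.128% of all gene counts in cKO replicates 1 to 3, and 0.0479% and 0.122% in WT replicates 1 and 2. The exact 95% binomial intervals of these shares were 0.132% to 0.136%, 0.173% to 0.176% and 0.126% to 0.130% in cKO, and 0.0469% to 0.0489% and 0.121% to 0.124% in WT. In CPM the 31 genes summed to 1459, 1587 and 1328 in cKO, against 473 and 1228 in WT. All 3 cKO libraries therefore lay above both WT libraries, but the gap between the WT libraries was larger than that between WT replicate 2 and cKO replicate 3. The cKO mean of 1458 ± 129.5 CPM was 1.72-fold the WT mean of 850.2 ± 534 CPM (SD, n = 3 and n = 2), a log2 ratio of 0.78, which was 0.25 without WT replicate 1 and 1.63 without WT replicate 2.

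No gene of the set passed the test between genotypes. Of the 32 genes, 22 had enough counts to test; the other 10 were Itgb4, Lamb3, the 4 cornified envelope genes, Dsp, Dsc1, Pkp1 and Fabp4. edgeR's quasi-likelihood test with Benjamini-Hochberg adjustment over all tested genes called 0 of the 22, with 0.0% called over all 9988 tested genes, and the smallest adjusted p in the set was 0.968. At an unadjusted p of 0.05, 2 of the 22 passed, Krtdap and Krt10, against 4.15% of all tested genes. DESeq2 called 0 of the 22 and 1.91% of all tested genes, and its smallest adjusted p in the set was 0.156, for Krtdap. It gave no adjusted p for Krt6a and Trp63, which it could therefore not call. With the replicate number as a block, 0 of the 22 and 0.01% of all tested genes were called. The fitted log2 fold change was above 0 for 18 of the 22 genes, with a median of 0.90, and for 52.5% of all tested genes, with a median of 0.06. All 3 cKO libraries lay above both WT libraries for 5 of the 22 genes, Krt10, Krtdap, Lgals7, Sfn and Perp, compared with 8.87% of all tested genes. They lay below both WT libraries for 0 of the 22, compared with 10.2% of all tested genes. The genes share their libraries, so their common direction is not that many separate observations.

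**Figure D1:**
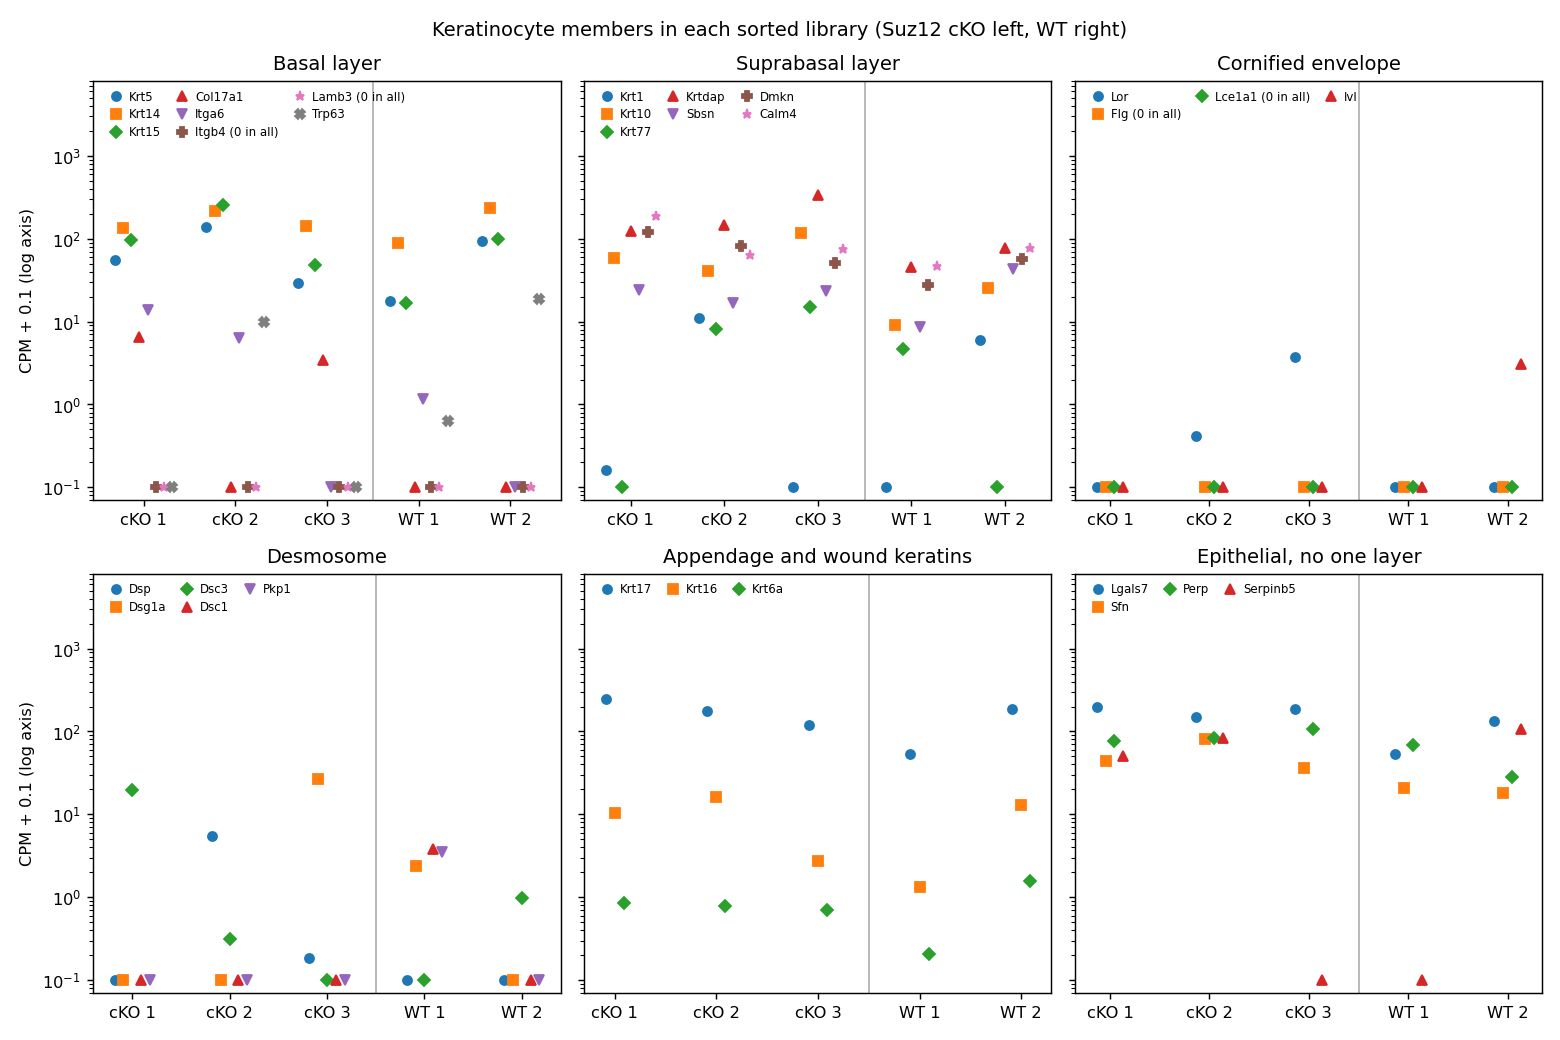
Each point is 1 gene in 1 library, in CPM with 0.1 added on a log axis, with the 3 Suz12 cKO libraries left of the line and the 2 WT libraries right of it, and a panel for each layer or group. Points at 0.1 had no count; the keratins of the basal layer, most suprabasal genes, Krt17 and Lgals7 were seen in all 5 libraries, while cornified and desmosome genes were seen in 3 libraries at most.

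In the basal layer, the structural keratins were abundant in all 5 libraries and did not separate the genotypes. Krt14, the basal type I keratin (chromosome 11, 100203162 to 100207510, GRCm38.p6), lay at 133.8, 214.8 and 144.1 CPM in cKO and at 89.5 and 235.3 CPM in WT. Its highest and its lowest value both came from WT libraries, and the fitted log2 fold change of 0.02 was far below its standard error of 0.50 (edgeR adjusted p = 0.999). Its partner Krt5, the basal type II keratin, lay at 55.5, 138.7 and 29.1 CPM in cKO and at 17.6 and 94.7 CPM in WT, again with overlapping groups (log2 fold change 0.41, standard error 0.93). Krt15, a keratin of basal and hair follicle stem cells, lay at 95.2, 252 and 48.6 CPM in cKO and at 16.7 and 100.3 CPM in WT. For Krt5 and Krt15, cKO replicate 2 was the highest library and WT replicate 1 the lowest. Trp63, the transcription factor p63 that maintains basal keratinocytes, had 0, 276 and 0 counts in cKO and 10 and 314 counts in WT. It was thus carried by cKO replicate 2 and WT replicate 2, the pair of libraries with the most Krt5.

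The anchoring genes of the basal layer in the set were at 0 or seen in part of the libraries. Itgb4, the beta chain of the hemidesmosomal integrin, and Lamb3, a laminin chain of the basement membrane, had no count in any library. Itga6, the alpha chain that pairs with Itgb4, had 217, 178 and 0 counts in cKO and 20 and 0 counts in WT. Col17a1, the transmembrane collagen of hemidesmosomes, had 104, 0 and 39 counts in cKO and none in WT. From a longer list of keratinocyte genes, the laminin chain gene Lama3 and the integrin gene Itga3 also had no count anywhere. The hemidesmosome plaque genes Plec and Dst of that list were seen in all 5 libraries. Plec, which encodes plectin and is not restricted to keratinocytes, had 1524, 873 and 184 counts in cKO and 1381 and 807 counts in WT, and Dst, which encodes dystonin, had 2, 1 and 152 counts in cKO and 47 and 78 counts in WT. The keratins are 1660 to 2190 bases long in the count table and the anchoring genes of the set 4055 to 6169 bases.

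The basal sum was 304.5, 621.6 and 225.2 CPM in cKO and 125.4 and 448.9 CPM in WT. The libraries alternated between genotypes, in the order cKO replicate 2, WT replicate 2, cKO replicates 1 and 3, and WT replicate 1. The log2 ratio of the means was 0.42, and it turned to -0.12 without cKO replicate 2 and to -0.23 without WT replicate 1, and was 1.61 without WT replicate 2. The sample titles have 2 styles. Among libraries titled LC the log2 ratio was 1.88 (cKO replicates 1 and 2 against WT replicate 1), and among those titled Langerhans-cell it was -1.0 (cKO replicate 3 against WT replicate 2).

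The 250 bases upstream of the start of Krt5, a basal keratin, of Krtdap, a suprabasal gene, and of Lor, a cornified envelope gene, are shown because these genes stand for 3 steps of keratinocyte maturation, the first 2 seen in all libraries and the last in 2 of 5. All are given on the strand of the gene, from RefSeq on GRCm38.p6, at chr15:101712906-101713155 (minus strand), chr7:30787655-30787904 (plus strand) and chr3:92083143-92083392 (minus strand). Capitals mark TATAAA on the gene strand and TGANTCA, the AP-1 motif, on either strand.
Krt5: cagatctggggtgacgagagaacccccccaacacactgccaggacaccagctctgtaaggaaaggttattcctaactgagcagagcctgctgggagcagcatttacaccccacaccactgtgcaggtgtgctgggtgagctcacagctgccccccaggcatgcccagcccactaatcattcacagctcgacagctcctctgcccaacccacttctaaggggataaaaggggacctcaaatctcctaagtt
Krtdap: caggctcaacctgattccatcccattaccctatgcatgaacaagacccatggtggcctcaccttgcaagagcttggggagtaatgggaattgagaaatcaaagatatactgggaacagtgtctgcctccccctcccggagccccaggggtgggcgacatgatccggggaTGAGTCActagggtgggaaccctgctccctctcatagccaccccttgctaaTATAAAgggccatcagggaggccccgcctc
Lor: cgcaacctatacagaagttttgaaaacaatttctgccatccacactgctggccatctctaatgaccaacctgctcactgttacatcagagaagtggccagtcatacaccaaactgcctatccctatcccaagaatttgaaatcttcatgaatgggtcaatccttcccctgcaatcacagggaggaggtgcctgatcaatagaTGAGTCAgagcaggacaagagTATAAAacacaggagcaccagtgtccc
Krtdap held TATAAA from base 30 to base 25 before its start and the AP-1 motif from base 81 to base 75. Lor held them from base 27 to 22 and from base 48 to 42, and Krt5 held neither in this window. A promoter was listed for 18 of the 32 genes. TATAAA was found in 6 of these 18 (33.3%) and in 8.12% of all 27025 promoters, and the AP-1 motif in 7 of 18 (38.9%) and in 6.87% of all promoters. GCCNNNGGC, the AP-2 motif, searched on both strands, was found in 1 of the 18 (5.56%) and in 13.6% of all promoters. The genes with both TATAAA and the AP-1 motif were Flg, Ivl, Krtdap and Lor, so 1 of them was abundant and 3 were at or near 0 in these libraries. These matches describe the letters in the window and not binding.

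The suprabasal layer was the layer in which all cKO libraries lay above both WT libraries by the widest margin. Its sum was 513.8, 366.3 and 618.8 CPM in cKO and 141.6 and 285.3 CPM in WT. The means were 499.6 ± 126.9 CPM in cKO and 213.4 ± 101.6 CPM in WT (SD, n = 3 and n = 2), which is 2.34-fold or 1.23 on the log2 scale. The log2 ratio was 0.81 without WT replicate 1 and 1.82 without WT replicate 2. It was 1.64 among libraries titled LC and 1.12 among those titled Langerhans-cell. No test was made of these sums, because the genes were chosen with results of these data known.

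Krtdap, a secreted protein of differentiating keratinocytes (chromosome 7, 30787905 to 30791089), was the most abundant gene of the set per length, at a mean of 318.8 CPM per kilobase over the 5 libraries. It lay at 123.6, 144.8 and 336.5 CPM in cKO and at 45.4 and 76.8 CPM in WT. Every cKO value was above both WT values, and cKO replicate 3 was more than the other cKO libraries together. In the fit, Krtdap had a log2 fold change of 1.72 (standard error 0.58, unadjusted p = 0.0221, edgeR adjusted p = 0.968), and of 1.14 without cKO replicate 3. Krt10, the type I keratin of suprabasal cells (chromosome 11, 99385254 to 99397449), lay at 58.2, 40.5 and 117.5 CPM in cKO and at 9.05 and 25.4 CPM in WT. Its groups did not overlap either (log2 fold change 2.06, standard error 0.81, unadjusted p = 0.040, edgeR adjusted p = 0.968), and its log2 fold change was 1.51 without WT replicate 1, 1.52 without cKO replicate 3 and 2.99 without WT replicate 2.

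Krt1, the type II partner with which Krt10 forms filaments, did not follow it. It had 1, 313 and 0 counts in cKO and 0 and 101 counts in WT, in libraries where Krt10 had 930, 1143 and 1369 counts in cKO and 171 and 431 counts in WT. Krt1 was thus not seen in cKO replicate 3, the library with the most Krt10. Krt77, a suprabasal type II keratin and neighbour of Krt1 on chromosome 15, had 0, 230 and 176 counts in cKO and 86 and 0 counts in WT. Both type II keratins were at or near 0 in cKO replicate 1.

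Dmkn, a secreted protein of the suprabasal layers, lay at 121.4, 81.1 and 50.8 CPM in cKO and at 27.6 and 56.5 CPM in WT. Calm4, a calmodulin-like protein of differentiating mouse keratinocytes, lay at 186.4, 64.3 and 75.3 CPM in cKO and at 46.6 and 77.0 CPM in WT. For both genes WT replicate 2 lay inside the range of the cKO libraries, and their log2 fold changes of 1.01 and 0.81 (standard errors 0.61 each) did not pass (edgeR adjusted p = 0.999 for each). Sbsn, a further secreted suprabasal protein, was highest in WT replicate 2, at 43.6 CPM, against 16.5 to 24.2 CPM in cKO. Sbsn, Dmkn and Krtdap lie side by side on chromosome 7, between 30732674 and 30791089, and each had its highest value in a different library, WT replicate 2, cKO replicate 1 and cKO replicate 3. Their order across libraries was thus not shared.

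**Figure D2:**
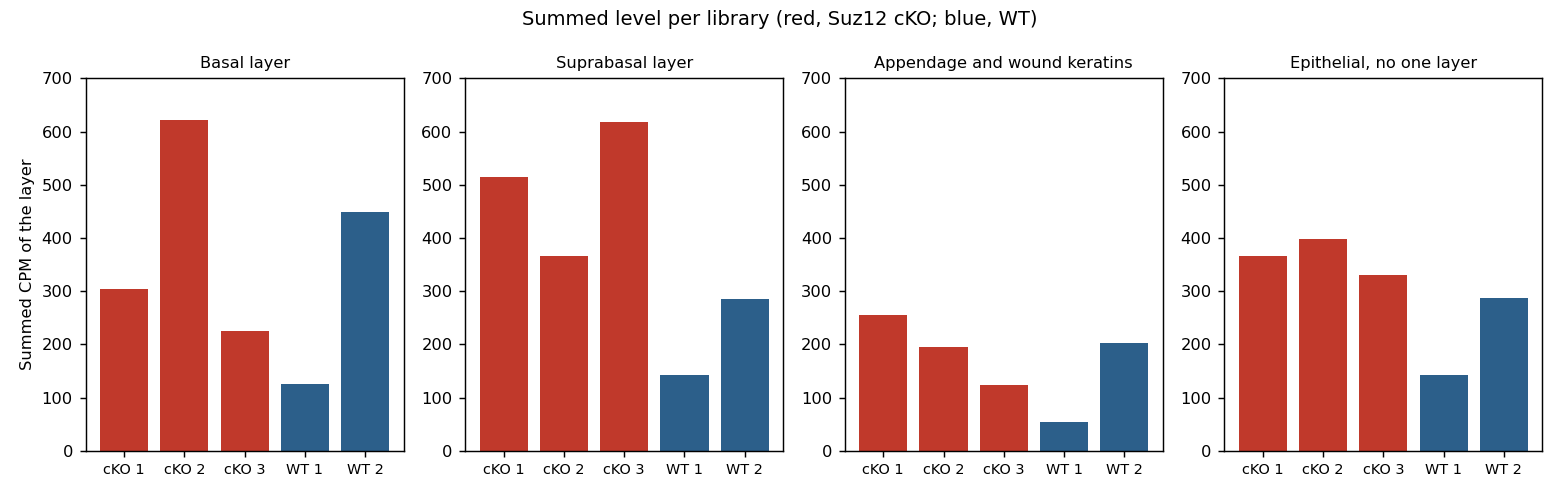
Bars give the summed CPM of the basal, suprabasal, appendage and epithelial genes in each library, with the 3 Suz12 cKO libraries (red) left of the 2 WT libraries (blue) and the same axis from 0 in every panel. The suprabasal sums were 366.3 to 618.8 CPM in cKO and 141.6 to 285.3 CPM in WT, while the basal sums of the genotypes overlapped.

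The basal and suprabasal layers did not move together across the libraries. The suprabasal sum divided by the basal sum was 1.69, 0.589 and 2.75 in cKO and 1.13 and 0.636 in WT, a 4.66-fold range with the lowest and the highest value both in cKO. cKO replicate 2 had the largest basal sum and the smallest suprabasal sum of the cKO libraries, and cKO replicate 3 the reverse. WT replicate 1 was lowest in both layers, with log2 ratios to the mean of the 5 libraries of -1.46 (basal) and -1.44 (suprabasal). Krtdap counts per Krt14 count were 0.924, 0.674 and 2.33 in cKO and 0.507 and 0.326 in WT. Krt10 counts per Krt14 count were 0.435, 0.188 and 0.815 in cKO and 0.101 and 0.108 in WT. Both ratios were higher in every cKO library than in either WT library. This follows largely from the genes used. Krtdap and Krt10 are the 2 genes of the set with an edgeR unadjusted p under 0.05, and Krt14 had a log2 fold change of 0.02. The ratio of the whole sums overlapped between genotypes, at 0.589 in cKO replicate 2 and 1.13 in WT replicate 1. Within the basal layer the ratios also varied: Krt15 counts per Krt14 count were 0.711, 1.17 and 0.337 in cKO and 0.186 and 0.426 in WT, with overlap between genotypes. The libraries thus differed in the makeup of the RNA of these genes as well as in its amount. With 5 libraries no correlation between layers was computed.

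**Figure D3:**
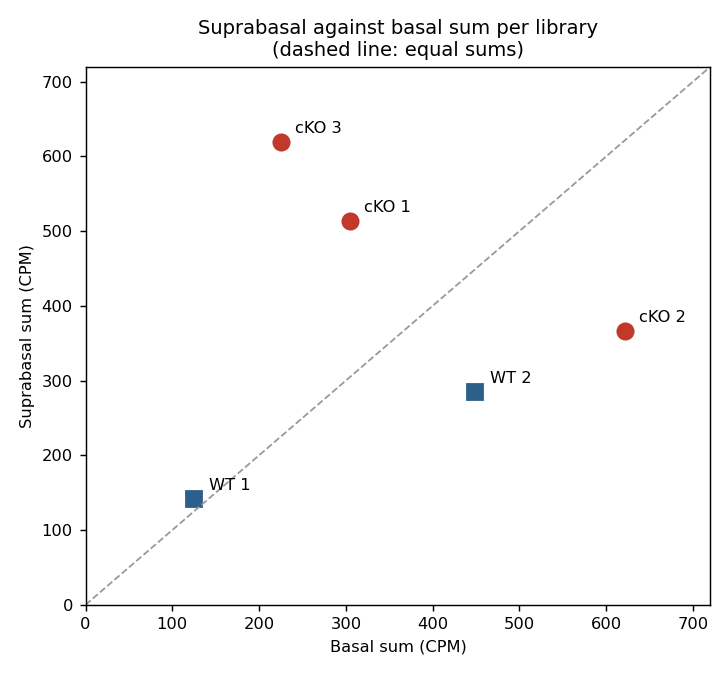
Each point is 1 library, with its summed basal CPM on the x axis and its summed suprabasal CPM on the y axis, for Suz12 cKO (circles) and WT (squares). cKO replicates 1 and 3 lay above the line of equal sums at ratios of 1.69 and 2.75, WT replicate 1 near it at 1.13, and cKO replicate 2 and WT replicate 2 below it at 0.589 and 0.636.

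The 4 cornified envelope genes of the set were at or near 0 in all 5 libraries. Flg, which encodes filaggrin, the protein that bundles keratin in the outermost living cells, and Lce1a1, a late cornified envelope protein, had no count. Lor, which encodes loricrin, a main protein of the envelope, had 0, 9 and 43 counts in cKO, or up to 3.69 CPM, and none in WT. Ivl, which encodes involucrin, an early scaffold of the envelope, had 51 counts in WT replicate 2, or 3.01 CPM, and none elsewhere. The 4 genes together took at most 0.000356% of the counts of a library (exact 95% interval 0.000257% to 0.000479%), and had no count in cKO replicate 1 and WT replicate 1. None of the 4 had enough counts to test, and no genotype difference was detectable at this depth.

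The 5 desmosome genes of the set were seen in 1 to 3 libraries each. Dsc3, a desmocollin of basal cells, had 312, 6 and 0 counts in cKO and 0 and 15 counts in WT. Dsg1a, a desmoglein of the upper layers, had 0, 0 and 311 counts in cKO and 43 and 0 counts in WT. Dsp, the desmoplakin that ties desmosomes to keratin filaments, had 0, 154 and 1 counts in cKO and none in WT. Each of these had most of its counts in a single cKO library, and a different one each time. Dsc1, a desmocollin of the upper layers, and Pkp1, a plaque protein, had 71 and 64 counts in WT replicate 1 and none in the other 4 libraries. The desmosome sum was 19.5, 5.66 and 26.8 CPM in cKO and 9.42 and 0.884 CPM in WT. Its log2 ratio of 1.75 was 4.29 without WT replicate 1, 1.29 without cKO replicate 3 and 0.88 without WT replicate 2, and the mean over genes of log2(CPM + 1) differed by 0.11 only. In the longer list, the desmosome genes Jup and Pkp3 were seen in all 5 libraries, and Dsg3 and Dsc2 in none. Jup had 391, 1395 and 446 counts in cKO and 808 and 239 in WT. Pkp3 had 187, 206 and 226 counts in cKO and 22 and 4 in WT (edgeR adjusted p = 0.999).

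The keratins of appendages and wounded skin included one of the most abundant members. Krt17, a keratin of hair follicles and activated epidermis, lay at 244.3, 178.1 and 119.5 CPM in cKO and at 52.8 and 187.8 CPM in WT, with overlapping groups (log2 fold change 0.59, standard error 0.61, edgeR adjusted p = 0.999). Krt16, which is induced in wounded epidermis, lay at 10.3, 16 and 2.66 CPM in cKO and at 1.22 and 12.8 CPM in WT. Its type II partner Krt6a had 12, 19 and 7 counts in cKO and 2 and 25 counts in WT. All 3 keratins were lowest in WT replicate 1, and Krt16 and Krt6a were next lowest in cKO replicate 3. Their sum had a log2 ratio of 0.58, which was -0.08 without WT replicate 1, 1.82 without WT replicate 2, 2.06 among libraries titled LC and -0.72 among those titled Langerhans-cell.

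The low counts of Krt16 and Krt6a are uncertain because these genes share sequence with other genes. Of all 75-base windows of their transcripts, the length of the reads, 28.9% for Krt16 and 38.6% for Krt6a also occur in a transcript of another gene in GENCODE vM21. Of the 431 shared windows of Krt16, 96 were shared with Krt14 and the rest with Gm11597. Of the 932 shared windows of Krt6a, 100 were shared with Krt5 and most with Krt6b. The longest run shared by the coding sequences of Krt14 and Krt16 was 134 bases (bases 306 to 439 of the Krt14 coding sequence, chromosome 11). It is shown since a read inside it matches both genes, unless its mate lies outside the run.
Krt14 and Krt16: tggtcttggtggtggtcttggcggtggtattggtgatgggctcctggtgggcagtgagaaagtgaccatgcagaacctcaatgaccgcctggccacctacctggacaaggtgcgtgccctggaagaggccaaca
Such windows made up 5.71% of Krt14 and 5.18% of Krt5. Dsg1a shared 29.2% of its windows, mainly with its neighbours Dsg1b and Dsg1c. No window of Krt15, Krt17, Krt10, Krt1, Krtdap, Dmkn, Calm4, Lgals7 or Perp was shared with another gene. Per Krt17 count, Krt16 had 0.0423, 0.0899 and 0.0223 counts in cKO and 0.023 and 0.0684 counts in WT.

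None of the 4 epithelial genes that belong to no one layer passed the test. For 3 of them all cKO libraries lay above both WT libraries, compared with 8.87% of all tested genes. Lgals7, which encodes galectin-7 of stratified epithelia, lay at 195.7, 149.8 and 187.6 CPM in cKO and at 53.0 and 133.5 CPM in WT (log2 fold change 0.93, standard error 0.48). Sfn, the 14-3-3 sigma protein of epithelial cells, lay at 43.9, 81.7 and 36.4 CPM in cKO and at 20.5 and 18.2 CPM in WT. Its WT libraries lay close together and below every cKO library (log2 fold change 1.48, standard error 0.71, unadjusted p = 0.0779, edgeR adjusted p = 0.968). Perp, a membrane protein of desmosomes that p63 activates, lay at 76.1, 83.3 and 107.0 CPM in cKO and at 68.4 and 27.8 CPM in WT. Perp and Sfn were lowest in WT replicate 2, while Lgals7 was lowest in WT replicate 1. Serpinb5, which encodes maspin of basal and glandular epithelia, had 802, 2369 and 0 counts in cKO and 0 and 1835 counts in WT. It was therefore among the most abundant genes of the set in WT replicate 2 and not seen in WT replicate 1 and cKO replicate 3. The epithelial sum was 365.9, 398.7 and 331.0 CPM in cKO and 142.0 and 287.7 CPM in WT, a log2 ratio of 0.77 that was 0.34 without WT replicate 1 and 1.36 without WT replicate 2. It was 1.43 among libraries titled LC and 0.20 among those titled Langerhans-cell.

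**Figure D4:**
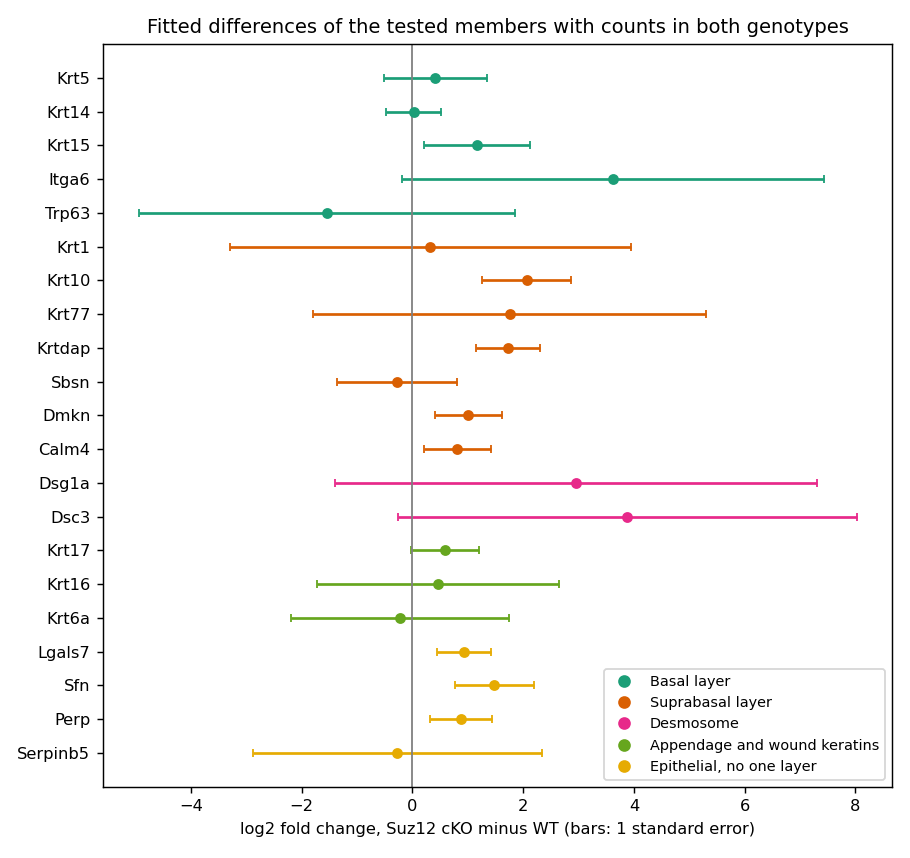
Points give the fitted log2 fold change of 21 tested genes with counts in both genotypes, Suz12 cKO minus WT, and bars 1 standard error. Krt10 and Krtdap lie farthest from 0 relative to their error, at 2.06 and 1.72, and Krt14 lies at 0.02; none passed the test.

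Fabp4 had 168 counts in WT replicate 2, or 9.90 CPM, and no count in the other 4 libraries. The cell that made it, a Langerhans cell or another, is not known from these libraries. Of 9 genes listed as adipocyte markers, Adipoq, Plin1, Cidec, Car3 and Retn had no count in any library. Lpl had 0, 175 and 5 counts in cKO and 148 and 168 counts in WT, Pparg had 344 counts in cKO replicate 2 and 3 in cKO replicate 1, and Cfd had 109 counts in cKO replicate 3 only. The 9 genes, Fabp4 included, summed to 0.188, 18.4 and 9.79 CPM in cKO and to 7.83 and 19.8 CPM in WT. Of 6 endothelial markers, Cdh5, Kdr, Tie1 and Emcn had no count. Pecam1 had 55 counts in cKO replicate 3 only, and Egfl7 had 95, 0 and 128 counts in cKO and none in WT. WT replicate 2 also held the largest sum of 6 melanocyte genes, 428.6 CPM, against 32.8 to 143.5 CPM in cKO and 39.6 CPM in WT replicate 1. The largest sum of 8 fibroblast genes was in cKO replicate 3, at 207.3 CPM, with 3.82 and 57.6 CPM in the other cKO libraries and 25.2 and 118 CPM in WT. In cKO replicate 3 this was mostly Dcn and Col3a1, at 136.3 and 51.8 CPM. Col1a1 and Col1a2 were lower there than in WT replicate 2, and Lum was seen in WT replicate 2 only. The 5 genes of dendritic epidermal and other T cells summed to 650.4, 203.2 and 181.6 CPM in cKO and to 580 and 412.4 CPM in WT. Most of each sum was Cd3g, at 539.9, 149.0 and 125.6 CPM in cKO and 360.3 and 303.6 CPM in WT. Cd3d and Trdc were highest in WT replicate 1, at 105.8 and 96.2 CPM. Thy1 had 4 counts in cKO replicate 2 and none elsewhere. The part of these cell types in the genotype values was not tested. Genes of the hair follicle sheath and shaft summed to 3.07 to 26.9 CPM in cKO and to 16 and 38.8 CPM in WT.

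Which genes of the set were seen in every library went with their length. The 14 keratinocyte genes with a count in all 5 libraries were 456 to 2286 bases long in the count table (median 1690). The 13 seen in 1 to 4 libraries were 1719 to 9592 bases long (median 4205). With the limit at 2500 bases, chosen after the values were seen, 14 of 19 shorter genes and 0 of 12 longer genes had a count in all 5 libraries. Among those that could be tested, the shares were 14 of 16 (87.5%) and 0 of 6. Over all tested genes the shares were 68.7% of shorter and 53.5% of longer ones. Of 70 further keratinocyte genes, 8 of 31 shorter (25.8%) and 6 of 39 longer ones (15.4%) had a count in all 5 libraries, a narrower gap than in the set. Lce1a1, at 708 bases, was short and not seen in any library. All desmosome genes and all anchoring genes of the set were longer than 2500 bases, so length and gene class cannot be told apart here.

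**Figure D5:**
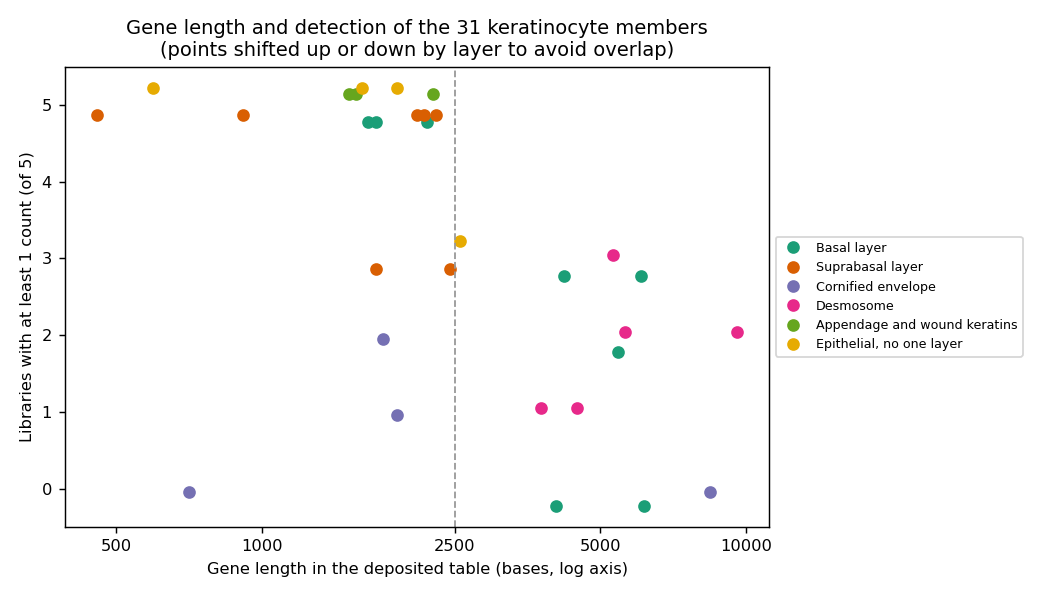
Each point is 1 of the 31 keratinocyte genes, with its length in bases on a log x axis and the number of libraries with at least 1 count on the y axis, coloured by layer. No gene right of the dashed line at 2500 bases was seen in all 5 libraries, against 14 of the 19 left of it.

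The longer list held 70 further keratinocyte genes. Of these, 18 had no count in any library, 14 had one in all 5, and 32 could be tested, with 21 higher and 11 lower in cKO and a median log2 fold change of 0.64. edgeR called 0 of the 32, and 3 had an unadjusted p under 0.05, against 4.15% of all tested genes. DESeq2 called 3, against 1.91% of all tested genes, among them Aqp3, higher in cKO, and Grhl1, lower in cKO. Aqp3, the water and glycerol channel of basal keratinocytes, lay at 16.1, 17.6 and 15.1 CPM in cKO and at 0.265 and 0 CPM in WT (edgeR unadjusted p = 0.0552, DESeq2 adjusted p = 0.014). Grhl1, a transcription factor that drives desmosomal genes, had no count in cKO and lay at 34.9 and 9.84 CPM in WT (DESeq2 adjusted p = 0.0025). All 3 cKO libraries lay above both WT libraries for 9 of the 32 and below both for 1, compared with 8.87% and 10.2% of all tested genes.

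The most abundant genes of the longer list were Cldn1, Krt79, Fabp5 and Ly6d. Cldn1, which encodes claudin-1 and is also made by Langerhans cells, lay at 2231, 2487 and 1545 CPM in cKO and at 1407 and 1088 CPM in WT. Ly6d, a surface protein of stratified epithelium, lay at 69.8, 74.1 and 133.2 CPM in cKO and at 24.6 and 39.1 CPM in WT (unadjusted p = 0.0316, edgeR adjusted p = 0.968). Like Krtdap and Krt10 it was highest in cKO replicate 3. Fabp5, a fatty acid binding protein of epidermis, had a log2 fold change of -0.7 (standard error 0.53, edgeR adjusted p = 0.999). It lay at 66.8, 35.5 and 91.0 CPM in cKO and at 84.5 and 124.7 CPM in WT, and its groups overlapped. Krt79 lay at 177.3, 98.2 and 115.1 CPM in cKO and at 175.9 and 91.3 CPM in WT, with overlapping groups.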

How the data were processed

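Messenger RNA of 5 libraries of purified Langerhans cells was sequenced as 75-base read pairs. The authors deposited raw gene counts and a length for each gene. The submitters' processing notes name featureCounts and mm10. No aligner, version, strand setting or rule for reads with several matches is given in the sources used here. The 5 files per sample were identical to the series table. Symbols, for 25275 of 27179 identifiers, and promoters came from RefSeq on GRCm38.p6, the assembly of mm10. The members and gene lists were chosen with earlier results of these data known.

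The test was edgeR 4.0.16 (R 4.3.3): genes kept by filterByExpr (minimum count 10), TMM scaling, the robust quasi-likelihood F test on genotype in its legacy form, and Benjamini-Hochberg adjustment over 9988 genes with calls at 0.05. Fold changes are given as log2, cKO minus WT. The standard error of a gene was derived from its test, as its log2 coefficient before shrinkage divided by the square root of its F statistic. The edgeR and DESeq2 1.42.0 fits were tested on simulated counts. Values per library were named for the 4 most abundant genes of each layer, genes with an unadjusted p under 0.05 and Fabp4, and for any called genes of the longer list or else its 4 most abundant. Other genes with values were chosen after they were seen, among them Itga6, Col17a1, Krt1, Krt77, Sbsn, Pkp1, Aqp3 and Grhl1. Some items are not reported here. Python 3.11.15 and matplotlib 3.10.9 were used for sums, windows and figures. Alternatives were RLE factors, DESeq2, no filter, a minimum count of 50, a replicate block, title style as a term, each library left out and, chosen after the data were seen, the non-legacy edgeR fit and sums without genes that share sequence.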

Additional observations from a re-analysis of the deposited data

How the results depend on the processing

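No gene of the set was called under any of the 12 alternatives, and none of these changed the 0 calls over all genes except DESeq2, with 191 (137 higher, 54 lower), and the replicate block, with 1. In the longer keratinocyte list DESeq2 called 3. Replicate numbers are shared by cKO and WT replicates 1 and 2 only. Deviations of same-numbered libraries from their group means had correlations of -0.0234 and -0.00516. The deviations of the WT libraries mirror each other, so these values cannot decide whether libraries were paired. The main fit did not pair them.

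With the replicate block the log2 fold change of Dsg1a was -5.37, of Krt6a 0.75 and of Serpinb5 4.38, each reversed against 2.96, -0.22 and -0.27. With title style as a term Dsg1a was -5.62 and Krt6a 0.81. Leaving out 1 library at a time gave -0.41 to 2.10 for Krt5, -0.51 to 0.89 for Krt14, -2.50 to 2.65 for Trp63, -0.05 to 1.78 for Krt17, -0.41 to 3.00 for Krt16, -1.11 to 2.60 for Krt6a and -1.27 to 0.32 for Serpinb5. It gave 1.14 to 2.15 for Krtdap and 1.51 to 2.99 for Krt10, and 0 calls over all genes, in the set and in the longer list. The log2 ratios of layer sums ranged from -0.23 to 1.61 (basal), 0.81 to 1.82 (suprabasal), 0.88 to 4.29 (desmosome), -0.08 to 1.82 (appendage), 0.34 to 1.36 (epithelial) and 0.25 to 1.63 (all 31 genes). Within the LC titles they were 1.88 (basal), 2.06 (appendage), 1.43 (epithelial) and 1.69 (all 31), and within the Langerhans-cell titles -1.0 (basal), 4.92 (desmosome), -0.72 (appendage), 0.20 (epithelial) and 0.11 (all 31). The cause of these changes was not tested. Without the most abundant gene, per kilobase, with other scalings or as a mean of log2(CPM + 1), each layer ratio kept its direction and moved by less than 1 SD between replicates. For the desmosome genes this SD was 1.7 on the log2 scale, and as a mean of log2(CPM + 1) their difference fell from 1.75 to 0.11. Values with no count left in a genotype were not computed, and no ratio is given for the cornified envelope, whose counts were too few.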

Other observations

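Of the envelope genes in the longer list, Sprr1a, a small proline-rich protein, was seen in all 5 libraries, at 63.5, 14.7 and 66.5 CPM in cKO and 26.8 and 36.3 CPM in WT. The proteases Klk7 and Klk8, which act in shedding of cornified cells, were each at 0 in 1 library and reached 33.2 CPM (Klk7, cKO replicate 3) and 22.6 CPM (Klk8, WT replicate 2). Krt8, a keratin of simple epithelium and Merkel cells, had 2, 740 and 0 counts in cKO and 297 and 155 counts in WT, while Krt20 and Atoh1 of Merkel cells had none. These genes were chosen after their values were seen.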
